A study of Drosophila melanogaster with 3 samples.

Results

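The peaks described here lie at the main starts of one-strand promoters in a binding map of tagged Pif1B from whole pupae of the fruit fly Drosophila melanogaster. They were taken from the authors' list of peaks past the irreproducible discovery rate (IDR) threshold, in the dm6 genome build. A peak was a member when its summit lay within 500 bp of the main start of a protein-coding gene, which is the 5'-most annotated start, and no protein-coding gene on the opposite strand started within 500 bp of the summit. Of the IDR peaks 1137 (17.7%) were members and 5273 were not. They lay at 1065 genes, of which 72 had 2 member peaks and the others 1. The comparison set was the 2358 regions of the pooled relaxed list that met the same position rule and overlapped no IDR peak.

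The study has 1 group of 3 biological replicates. Each is a mixed-sex pool of pupae of unknown age, from a transgenic line that stably expresses Pif1B with GFP at its C-terminal end. The chromatin was sheared by sonication and recovered with an antibody against GFP. The promoter that drives the fusion is not given in the labels, and the cell types of the whole animal are mixed. Only peak lists were analysed, so depth is unknown and its effect on the counts cannot be given. The signal value of a region is the authors' own, and it was used to rank regions within a list.

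A promoter is the stretch of DNA at which RNA polymerase is loaded and transcription of a gene begins. Many promoters of the compact fly genome serve a pair of genes that run in opposite directions, so that a peak there cannot be assigned to either gene. A one-strand promoter has a single direction, which lets the position of a peak be read as upstream or downstream of the start. Core promoter elements such as the TATA box lie close to the start, and GA repeats just upstream of it are bound in flies by the GAGA factor and by CLAMP. Pif1B takes its name from its interaction with a cyclin-dependent kinase of the PFTAIRE class.

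The DNA under the strongest members that lie upstream of their start is shown first, because it carries the base composition described below. Each line gives the bases within 50 bp of the summit in the direction of the gene, and stops before the main start. Members on a chromosome arm from which no sequence is shown were passed over. Capitals would mark 4 hexamers that were more frequent at member summits (the words AAGAGA with AGAGAG, then AGAGCG with GAGAGC, and their reverse complements), and none of the 6 windows holds one.
Ugalt, chrX:2703853-2703930, minus strand: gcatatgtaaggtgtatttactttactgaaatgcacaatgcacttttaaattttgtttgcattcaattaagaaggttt
CG14100, chr3L:19590571-19590671, minus strand: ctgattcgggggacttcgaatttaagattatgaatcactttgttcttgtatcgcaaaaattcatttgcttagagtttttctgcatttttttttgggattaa
CG18549, chr3R:12449138-12449238, plus strand: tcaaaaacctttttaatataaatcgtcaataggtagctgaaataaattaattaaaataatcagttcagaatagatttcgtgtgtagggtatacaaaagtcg
Hsp27, chr3L:9383865-9383965, plus strand: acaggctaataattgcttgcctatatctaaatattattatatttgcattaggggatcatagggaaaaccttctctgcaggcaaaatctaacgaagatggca
CG13921, chr3L:1746703-1746803, plus strand: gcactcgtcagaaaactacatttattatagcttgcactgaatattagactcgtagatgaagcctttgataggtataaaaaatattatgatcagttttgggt
Gapdh2, chrX:15867931-15868031, plus strand: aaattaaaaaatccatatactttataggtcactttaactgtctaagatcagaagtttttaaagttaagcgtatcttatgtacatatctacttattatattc
The GC content of these windows was 28.2% at Ugalt, 31.7% at CG14100, 26.7% at CG18549, 35.6% at Hsp27, 32.7% at CG13921 and 23.8% at Gapdh2. All 6 were below the mean of the members, 40.2% ± 11.3 (SD over 1137 peaks).

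The other sequences show the words that differed between the sets. Upstream members on the same arms were ranked by their bases in the 4 hexamers, leaving out windows that overlapped an annotated exon. The highest were dnc, which encodes a cAMP phosphodiesterase, and Cad86C, a cadherin, both chosen after their values were seen. Capitals mark those hexamers on either strand.
dnc, chrX:3176225-3176325, plus strand: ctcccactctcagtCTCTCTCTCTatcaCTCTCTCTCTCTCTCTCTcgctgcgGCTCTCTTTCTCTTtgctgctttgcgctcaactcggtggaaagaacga
Cad86C, chr3R:10826883-10826983, plus strand: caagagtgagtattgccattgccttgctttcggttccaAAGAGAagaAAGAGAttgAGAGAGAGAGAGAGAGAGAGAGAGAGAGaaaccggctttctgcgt
Their signals were 99.8 at dnc and 144 at Cad86C, against 1153 to 1933 at the 6 members shown above. The next lines hold the 30 bases around a motif near the main start, at the strongest member on the same arms that has it. The motif is in capitals. The gene CG42327 holds the reverse complement of GAGAGAG, and cbt holds overlapping copies of the reverse complement of GCCGNCGC, the Mad site. The TATA box of Hsp27 reads TATAAA, and the homeodomain site of CAH3 reads TAATTA.
CG42327, chr3R:11656082-11656111, plus strand: tctctctttccCTCTCTCtttgcttgcttc
cbt, chr2L:479713-479742, minus strand: tgccggcagcgGCGTCGGCGGCGGCagctc
Hsp27, chr3L:9384024-9384053, plus strand: cccagcgtcagTATAAAagccggcgtcaac
CAH3, chrX:8681152-8681181, plus strand: tttttaaTAATTAtggaaataaactgtaaa
These windows lay 67 to 38 bp upstream of the start at CG42327, 54 to 25 bp upstream at cbt, 39 to 10 bp upstream at Hsp27 and 100 to 71 bp upstream at CAH3. All sequences come from the RefSeq release of the dm6 assembly.

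The strongest members lay at genes of varied function. Their signals had a median of 136, with 10% below 90.7 and 10% above 380, and 59 (5.19%) reached 500. The highest was 1933 at Ugalt, which encodes a UDP-galactose transporter, with the summit 28 bp upstream of the start. It ranked 2, 3 and 1 in the lists of replicates 1, 2 and 3. Next came CG14100 (1871, 97 bp upstream) and CG18549 (1522, 108 bp upstream). Hsp27, a small heat shock protein, had a signal of 1415 with its summit 148 bp upstream of the start, and it ranked 11, 9 and 9 in replicates 1, 2 and 3. The peak at the glycolytic gene Gapdh2 had a signal of 1153, 164 bp upstream, and ranks of 24, 22 and 24. For these genes the 3 replicates placed the peak at nearly the same height in their lists.

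The others of the 20 strongest members fell on both sides of the start. CG13921 (1164), CG4586 (1087), Tina-1 (1033), SLC5A11 (987), a solute transporter, CG31145 (969) and aay (868), a phosphoserine phosphatase, had their summits upstream. So had CG13501 (828), Hpf1 (815), a factor for the ADP-ribosylation of histones, eIF6 (740), which keeps ribosomal subunits apart, and CG7841 (720). The summit lay downstream at CG32772 (1159, by 84 bp), GstE13 (936, by 93 bp), a glutathione transferase, Cat (845, by 305 bp), the catalase, hdly (828, by 17 bp) and yip2 (743, by 162 bp). The weakest members were mahe (83.2), an RNA helicase, Gclc (83.2), the catalytic subunit of glutamate-cysteine ligase, and eIF2beta (83.2), a translation initiation factor.

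Most members were found again among the strongest regions of each replicate, taken in the same number as the IDR list holds. The IDR list was itself chosen for reproducibility in these replicates, so these shares are a description that the rule in part fixes. Replicate 1 held 974 of 1137 (85.7%, 95% Clopper-Pearson interval 83.5 to 87.7), replicate 2 held 916 (80.6%, 78.1 to 82.8) and replicate 3 held 919 (80.8%, 78.4 to 83.1). All 3 replicates supported 709 members (62.4%), 2 supported 271, 1 supported 140 and none supported 17. Of the whole IDR list all 3 replicates supported 4207 peaks (65.6%). Intervals on shares cover counting error only. The median distance of the replicate's summit from the pooled one was 19 bp in replicate 1, 27 bp in replicate 2 and 24 bp in replicate 3. The largest ratio of ranks was at a second peak of CG4586, which ranked 3494, 2354 and 29 in replicates 1, 2 and 3. Its rank of 29 is that of the strongest replicate 3 region that overlapped it, with a summit 201 bp away. The stronger peak of CG4586 took the same rank in replicate 3, from a summit 20 bp away. So 1 region was matched to both peaks, and this ratio does not show a disagreement between replicates. Etf-QO, an electron transfer flavoprotein oxidoreductase, ranked 348, 10184 and 358 in replicates 1, 2 and 3, and yip2, a thiolase, ranked 51, 1221 and 43. At both genes replicate 2 was the low one, from a region with its summit 146 bp away at Etf-QO and 89 bp away at yip2. In replicates 1 and 3 the summits were 4 to 16 bp away. Whether the low ranks come from this matching was not tested.

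Member summits lay upstream of the main start more often than comparison summits. Of the members 770 of 1137 (67.7%) were upstream, against 1449 of 2358 comparison regions (61.5%), an odds ratio of 1.32 (95% Woolf interval 1.13 to 1.53; two-sided Fisher's exact test, p = 0.000317, adjusted p = 0.000792 over the 10 tests of single measures). The median offset was -86 bp at members and -61 bp at comparison regions, where negative values are upstream. The excess lay in the 200 bp before the start, which held 41.6% of the member summits and 33.8% of the comparison summits. Regions of 1 map are not replicates, so this p-value treats neighbouring regions of the same 3 libraries as separate units. In the lists of the single replicates, the strongest regions, in the number of the IDR list, that met the position rule were upstream in 63.5%, 70.4% and 68.0%, and the remaining regions in 56.8%, 58.3% and 56.9%, in replicates 1, 2 and 3. The stronger regions were higher in 3 of 3 replicates (67.3% ± 3.52 against 57.3% ± 0.821, SD, n = 3). Both shares of a replicate come from the same library, so they were compared as 3 pairs, with a mean difference of 9.98 ± 2.92 percentage points (SD, n = 3; exact sign-flip permutation test within replicates, two-sided p = 0.25, the smallest that 3 pairs allow).

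**Figure D1:**
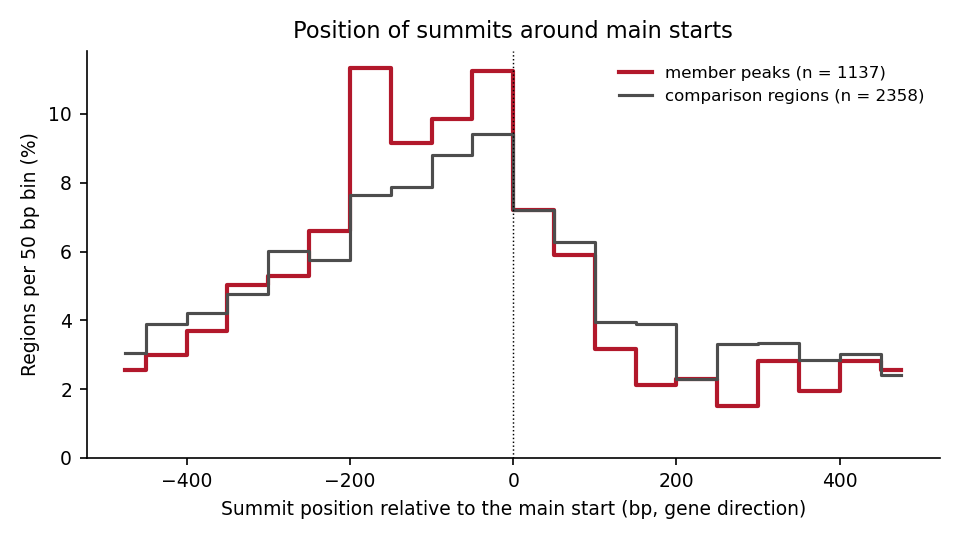
Share of summits in bins of 50 bp (y axis, %) by their position relative to the main start in the direction of the gene (x axis, bp), for member peaks (red) and comparison regions (grey). The members stand above the comparison regions in the 200 bp before the start, which hold 41.6% of the members and 33.8% of the comparison regions.

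The position of the summit went with how the summit was written in the list. In 878 members (77.2%) it was at the middle of the interval, as it was in all but 1 of the 2358 comparison regions. Of the 878, 98.4% were 430 bp wide. A summit at the middle of an interval of fixed width may be placed less precisely, which bears on the offsets and on the windows around summits and was not tested. The 259 members with a summit elsewhere were upstream in 80.7%, with a median offset of -161 bp, and the 878 with a central summit in 63.9%, with a median offset of -51 bp. When both sets were limited to central summits, an alternative added after the data were seen, the log2 odds ratio for an upstream summit was 0.15 (Fisher's exact test, p = 0.207), against 0.40 for all. With comparison regions that had no IDR peak within 1000 bp it was 0.19 (Fisher's exact test, p = 0.0908).

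The difference in the share within 100 bp of the start missed the threshold. It was 34.3% of the members and 31.8% of the comparison regions (odds ratio 1.12, 0.962 to 1.30; Fisher's exact test, p = 0.154, adjusted p = 0.171). With only the IDR peaks that 2 replicates support, its log2 odds ratio turned to -0.26 without replicate 1 (p = 0.0490, Fisher's exact test), -0.25 without replicate 2 and -0.20 without replicate 3, against 0.16 for all members.

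Stronger members lay farther upstream and in DNA of lower GC content. In 5 equal classes of signal, the strongest, with a median signal of 380, had 76.8% of its summits upstream and a median offset of -159 bp. The weakest class, with a median signal of 90.7, had 57.5% upstream and a median offset of -32.5 bp. The 3 classes between them had 76.2%, 68.3% and 59.9% upstream, from stronger to weaker. The mean GC content within 50 bp of the summit was 34.1% ± 9.70 in the strongest class and 43.6% ± 10.4 in the weakest (SD over 228 peaks each). Spearman's rho across the 1137 members was -0.21 between signal and offset, -0.29 between signal and GC content, and 0.34 between offset and GC content. These are descriptions across peaks of the same libraries, and the share of central summits moved with them, at 13.6% in the strongest and 100% in the weakest class.

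**Figure D2:**
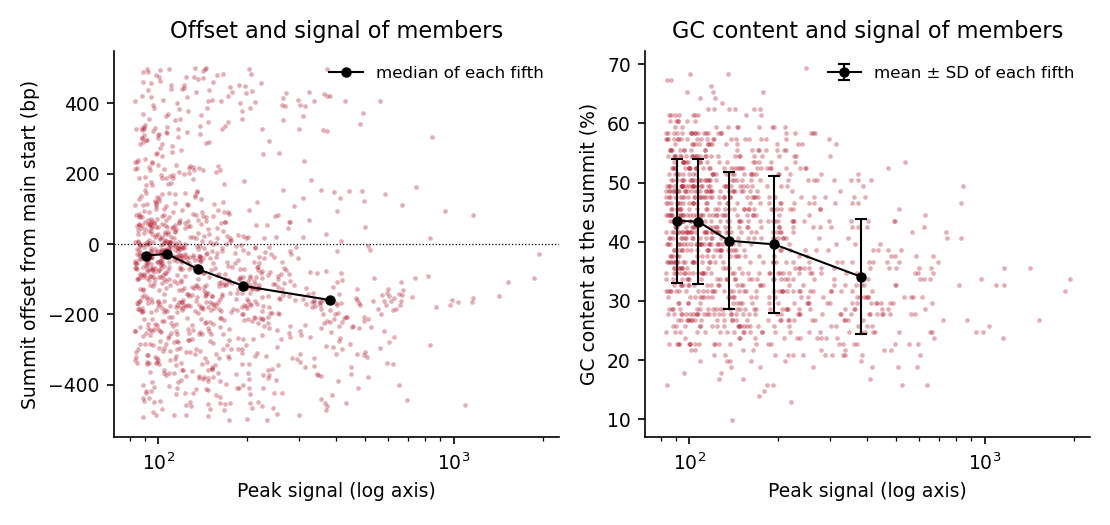
Each red point is 1 of the 1137 member peaks, by its signal (x axes, log scale) and by the offset of its summit from the main start (left, bp) or the GC content within 50 bp of the summit (right, %). Black points are medians (left) or means with SD (right) of 5 equal signal classes; the strongest class lies at -159 bp and 34.1% GC, and the weakest at -32.5 bp and 43.6%.

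Within a kind of summit, members were split at their median signal. This cut is coarser than the signal classes above. The gaps below therefore cannot be set against those between the strongest and the weakest class. Of members with a central summit, those above their median signal were upstream in 69.9% and had a mean GC content of 40.6%, while those below it were upstream in 57.9% with 43.5% GC. Of members with a summit off the middle, the values were 81.5% upstream and 32.5% GC above their median signal, against 79.8% and 35.1% below it, a gap of a few peaks in position. By position, members with summits 200 to 100 bp upstream had the highest median signal, 179. Bins farther upstream, from 500 to 200 bp, had medians of 151 to 162. Those from 100 bp upstream to 400 bp downstream had medians of 111 to 118, but the bin 400 to 500 bp downstream had 146. Signal was thus not low at all downstream summits. Spearman's rho between signal and distance from the start on either side was 0.16 across all members. The mean GC content was 33.5% for summits 300 to 200 bp upstream and 46.3% for those in the last 100 bp before the start.

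Over all members the difference in GC content from the comparison regions missed the threshold. The GC content was under 40% in 567 of 1137 members (49.9%) and in 1105 of 2358 comparison regions (46.9%), an odds ratio of 1.13 (0.979 to 1.30; Fisher's exact test, p = 0.0966, adjusted p = 0.138). This result turned on which peaks were kept. Among IDR peaks supported by both remaining replicates the log2 odds ratio was 0.56 without replicate 1 (p = 2.91e-06), 0.43 without replicate 2 (p = 0.000286) and 0.48 without replicate 3 (p = 5.48e-05, all by Fisher's exact test). With central summits in both sets it was -0.26 (Fisher's exact test, p = 0.0263), so members were then the ones with fewer AT-rich summits.

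At the main starts themselves 4 of 29 motifs differed, and GA repeats were the most frequent of those that were higher. The window ran from 100 bp before the start to 40 bp after its first base, on both strands, and does not depend on where a summit was placed. GAGAGAG was in 105 of 1065 member genes (9.86%) and in 113 of 1947 genes with a comparison region only (5.804%), an odds ratio of 1.78 (Fisher's exact test, Benjamini-Hochberg adjusted p = 0.00189 over 29 motifs). Of all 10141 one-strand main starts 3.501% held it. The Mad site GCCGNCGC, bound by the transcription factor that carries Dpp signals, was in 6.10% of member genes and 3.29% of comparison genes (adjusted p = 0.00454, Fisher's exact test), against 2.40% of all starts. These 2 motifs were the 6.90% of the 29 called higher at members.

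The 2 motifs called lower at members, again 6.90% of those tested, were A and T rich. TATAAA was in 14.8% of member genes, 19.8% of comparison genes and 23.9% of all one-strand starts (adjusted p = 0.00454, Fisher's exact test). TAATTA, the core that homeodomain proteins bind, was in 2.72% of member genes, 5.39% of comparison genes and 6.03% of all starts (adjusted p = 0.00454, Fisher's exact test). On the sense strand between 40 and 20 bp before the start, where a TATA box works, TATAAA began in 4.69% of member genes, 7.65% of comparison genes and 10.1% of one-strand genes with neither kind of region. This last count was made after the test and was not tested itself. Fisher's exact test had 6 of the 29 motifs at an unadjusted p under 0.05, the other 2 being the downstream promoter element core AGACG, at 18.9% of member genes and 15.6% of comparison genes, and AGATAA, a site for the factors of the Serpent family, at 5.16% and 7.60%.

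**Figure D3:**
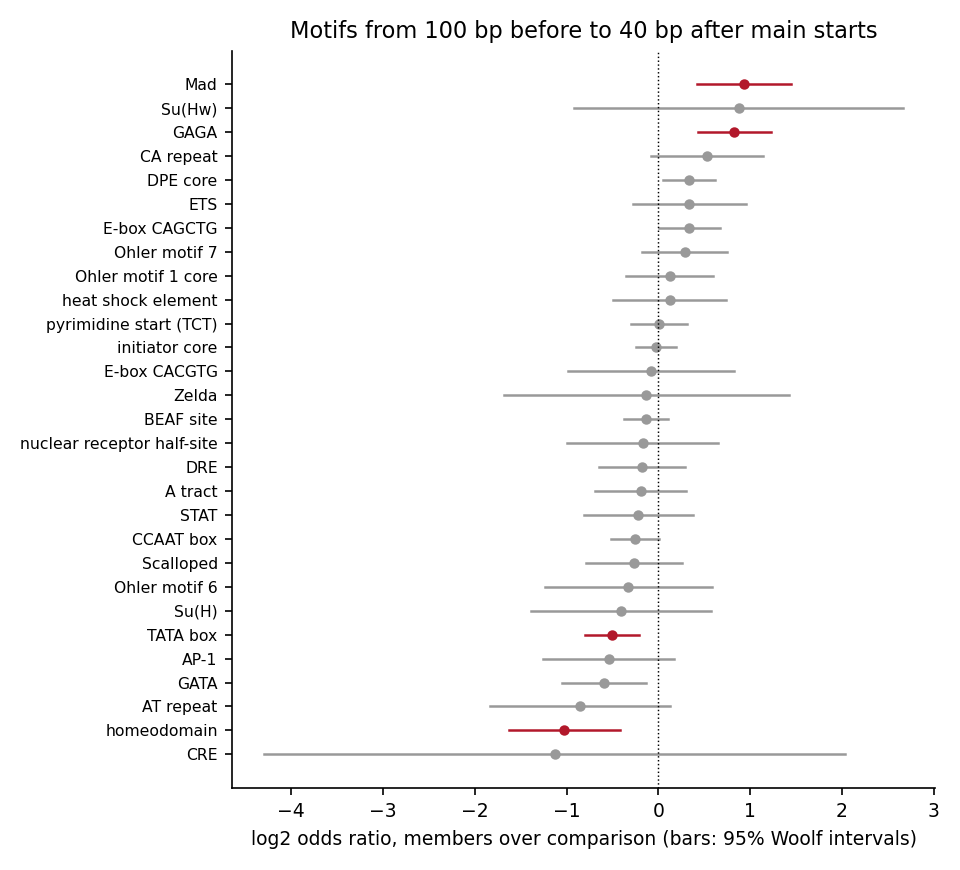
The log2 odds ratio of member genes over genes with a comparison region only (x axis) for each of the 29 motifs (y axis) from 100 bp before to 40 bp after the main start, with 95% Woolf intervals. Motifs past the adjusted threshold are red: Mad and GAGA lie to the right of 0, and the TATA box and homeodomain core to the left.

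The replicate lists gave the same directions for these 4 motifs. Among genes with 1 of the strongest regions, as many as the IDR list holds, GAGAGAG was at 9.49%, 9.62% and 8.88% of main starts in replicates 1, 2 and 3, and among genes with a weaker region only at 5.64%, 4.976% and 6.543% (9.33% ± 0.399 against 5.72% ± 0.787, SD, n = 3; exact sign-flip permutation test, p = 0.25). The Mad site was at 5.61% ± 0.0818 against 3.47% ± 0.392, and TATAAA at 14.96% ± 0.274 against 18.6% ± 0.495 (SD, n = 3; exact sign-flip permutation test, p = 0.25 each). None of these groups of 3 overlap. This does not set the motifs apart, as it also held for motifs that were not called. CCAAT, for example, was at 19.7% ± 0.558 against 23.7% ± 0.394 (SD, n = 3). For other uncalled motifs, such as TATCGATA, the groups did overlap. Within the list of replicate 3 alone none of the 4 motifs passed Fisher's exact test after adjustment, with adjusted p = 0.123 for GAGAGAG as well as for TATAAA and TAATTA and 0.161 for the Mad site. In the list of replicate 2 alone TAATTA missed it (adjusted p = 0.348, Fisher's exact test), and with starts within 250 bp GAGAGAG alone of the 4 passed, with adjusted p of 0.130 for TATAAA, 0.0759 for TAATTA and 0.103 for the Mad site. When genes were compared within 5 classes of GC content, GAGAGAG alone stayed past the threshold, with adjusted p of 0.228 for TATAAA, 0.202 for TAATTA and 0.108 for the Mad site (Mantel-Haenszel test). Against comparison regions above their own median signal none of the 4 passed, with adjusted p of 0.206 for GAGAGAG (Fisher's exact test).

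GAGA motifs were not spread evenly around the start. In steps of 25 bp they were most frequent 75 to 50 bp upstream at member genes (4.04%), and 100 to 75 bp upstream at comparison genes (3.03%). At the 7243 one-strand genes with neither kind of region the highest step held 0.801%. From the start on, no step reached 1% in member genes. By signal, GAGAGAG was at the start of 13.5% of the 222 genes of the strongest class and of 8.80%, 9.35%, 9.71% and 7.73% in the following classes. The strongest members with the motif at the start were CG42327 (597), Kal1 (590), by (560), a tensin homologue, CG10527 (514) and CG11151 (512), which were named after their values were seen. In all, the 105 genes with the motif had a median signal of 145, and the 960 without it 138.

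**Figure D4:**
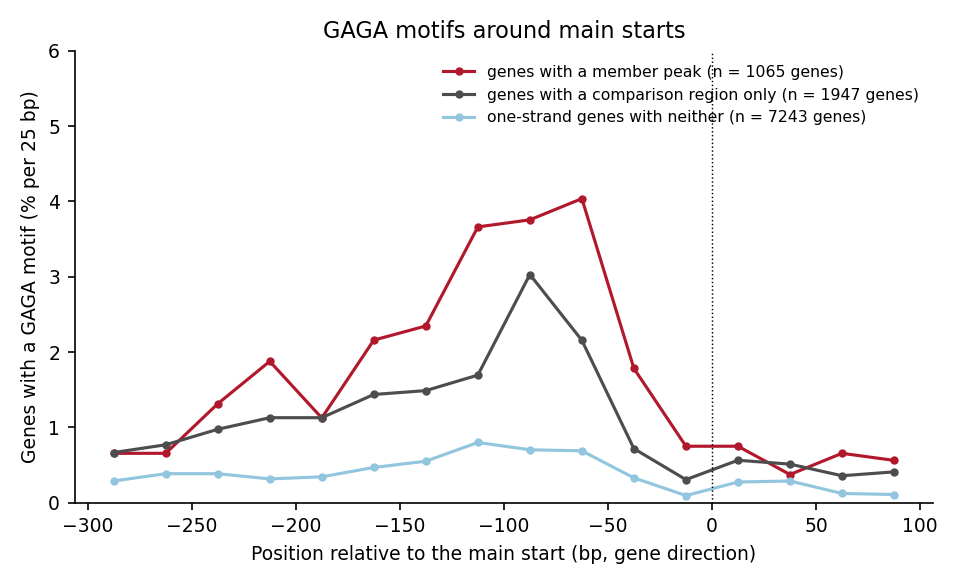
Share of genes with a GAGAGAG motif on either strand (y axis, %) in steps of 25 bp around the main start (x axis, bp in the direction of the gene). Genes with a member peak (red) reach 4.04%, genes with a comparison region only (grey) 3.03% and one-strand genes with neither kind of region (blue) 0.801%, all before the start.

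At the summits, words that hold AGAG were the ones that differed, and of these only AGAGAG is a pure GA repeat. Of all hexamers, each counted together with its reverse complement, 4 (0.192%) were more frequent within 50 bp of member summits and 0 (0%) were less frequent. AAGAGA was at 12.9% of members and 7.72% of comparison regions, AGAGAG at 14.1% and 8.61%, AGAGCG at 12.49% and 7.59%, and GAGAGC at 12.8% and 8.23% (Fisher's exact test, adjusted p = 0.00177, 0.00177, 0.00317 and 0.0129 in that order). With starts within 250 bp, or against comparison regions above their own median signal, 0 hexamers passed in either direction by Fisher's exact test. With 1 region per gene AGAGCG alone passed, the other 3 having adjusted p of 0.058 to 0.069, and among the stronger of the IDR peaks AAGAGA alone of the 4 did. GAGAGC also missed the threshold without replicate 1 (adjusted p = 0.120, Fisher's exact test) and without replicate 3 (adjusted p = 0.207). The words overlap each other and were often in the same window: 38 members held all 4. At least 1 was present in 305 of 1137 members (26.8%) and 432 of 2358 comparison regions (18.3%). The 4 words were chosen in these same windows, so the direction of that difference was fixed in advance. In the 5 signal classes of members the share with at least 1 was 17.98%, 29.96%, 27.8%, 26.9% and 31.6% from strongest to weakest. It was lowest in the strongest class, the class of lowest GC content.

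None of the 29 motifs passed the test at summits, 0% called higher and 0% called lower (Fisher's exact test). At an unadjusted p under 0.05 there were 4 motifs. GAGAGAG, at 6.60% of members and 4.28% of comparison regions (Fisher's exact test, adjusted p = 0.104), and the CRE site TGACGTCA, at 0.440% and 0.0848%, were higher. The BEAF-32 core CGATA, at 11.8% and 15.01%, and ATATATAT, at 1.93% and 3.48%, were lower. The hexamer test had 160 words at an unadjusted p under 0.05, 78 higher and 82 lower. For GAGAGAG at summits the call was past the threshold in 8 alternatives and missed it in 11. Among the 8 were those without replicate 1 (Fisher's exact test, adjusted p = 0.0139) and without replicate 3 (adjusted p = 0.0231), where only peaks supported by the other replicates are kept.

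Core elements known from housekeeping promoters, and the initiator, missed the threshold at the starts. The DNA replication element TATCGATA was in 5.35% of member genes and 6.01% of comparison genes, the core of Ohler motif 1 (GGTCACAC) in 5.73% and 5.29%, Ohler motif 6 in 1.31% and 1.64%, Ohler motif 7 in 6.20% and 5.14%, and the initiator core TCAGT in 42.3% and 42.7%. The smallest adjusted p among these 5 was 0.586 (Fisher's exact test), which does not show that the sets are alike. The remaining motifs missed the adjusted threshold at the starts too. Of the E-boxes CACGTG was at 1.41% and 1.49% and CAGCTG at 12.9% and 10.5%, the CA repeat CACACACA was at 3.66% and 2.57%, ATATATAT at 1.03% and 1.85%, and the A tract AAAAAAAA at 4.79% and 5.44%. CCAAT was in 213 of 1065 and 447 of 1947 genes, the heat shock element TTCNNGAA at 3.29% and 3.03%, and the ETS core CCGGAA at 3.47% and 2.77%, with member genes first in each pair. BEAF-32 cores were at 27.6% and 29.5%, the pyrimidine motif CTTTTC at 14.5% and 14.4%, the Zelda site CAGGTAG at 0.469% and 0.514%, and the AP-1 site TGANTCA at 2.07% and 2.98%. The nuclear receptor half-site AGGTCA was at 1.69% and 1.90%, the Su(H) site GTGGGAA at 1.13% and 1.49%, the Su(Hw) word GCATACTT at 0.469% and 0.257%, and the CRE site at 0.0939% and 0.205%. The STAT site TTCNNNGAA was at 3.29% and 3.80%, and the Scalloped site CATTCC at 4.23% and 5.03%.

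Member genes were longer and had more annotated starts than genes with a comparison region only. A span above 10 kb was found in 385 of 1065 member genes (36.2%) and 587 of 1947 comparison genes (30.1%), an odds ratio of 1.31 (1.12 to 1.54; Fisher's exact test, adjusted p = 0.00166). Their median spans were 5975 and 4348 bp. At least 2 starts were annotated for 47.7% of member genes and 37.9% of comparison genes (odds ratio 1.497, 1.29 to 1.74; Fisher's exact test, adjusted p = 1.72e-06). In the single replicate lists a long span was found in 36.5%, 34.0% and 34.7% of genes with a strong region and in 29.2%, 26.5% and 29.4% of those with a weaker one, higher in 3 of 3 replicates (exact sign-flip permutation test, p = 0.25). Against comparison regions above their own median signal, the log2 odds ratio was 0.10 for span (p = 0.469) and 0.24 for the number of starts (p = 0.0618, Fisher's exact test for both).

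Other IDR peaks inside the gene were counted as well, without a test. They lay more than 500 bp from the main start in 382 of 1065 member genes (35.9%) and 461 of 1947 comparison genes (23.7%). For genes over 10 kb the shares were 70.9% and 51.3%, and for shorter genes 16.03% and 11.8%, with member genes first in each pair. The most in a single member gene was 23.

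Chromosome X held similar shares of both sets, 19.7% of the members and 19.6% of the comparison regions on the 5 large arms (odds ratio 1.01, 0.845 to 1.21; Fisher's exact test, p = 0.927). Chromosome 4 held 12 members. The next protein-coding gene upstream was less than 1 kb away for 52.8% of member genes and 49.8% of comparison genes (odds ratio 1.13, 0.971 to 1.31; Fisher's exact test, adjusted p = 0.148).

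Genes with a pair of member peaks mostly had neighbouring summits. For the 72 such genes the summits were 199 to 840 bp apart, with a median of 204 bp, and in 60 the intervals overlapped. The median lay close to the lowest distance. Whether the peak caller sets a smallest spacing between summits is not known, so the spacing cannot be read as that of separate binding sites. At Hsp26, a small heat shock protein, the signals were 403 at 20 bp upstream and 362 at 224 bp upstream. At E23, an ABC transporter that ecdysone induces, they were 622 at 188 bp upstream and 404 at 389 bp upstream. In 16 of the 72 the summits lay on both sides of the start.

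Gene lists were read against the share of all genes with any region. Of 3012 genes with a member peak or a comparison region at the main start, 1065 had a member peak, 35.4% (33.6 to 37.1). Of all 10141 one-strand main starts, 1033 (10.2%) had one. At the remaining 32 member genes an opposite start lay within 500 bp of the main start, though not of the summit. Heat shock and chaperone genes had a member peak at 9 of 10 genes with a region, the highest share of the lists. After Hsp27 came Hsp26 (403), Hsp83 (392), the Hsp90 chaperone, with its summit 147 bp downstream, and stv (246), a co-chaperone of Hsp70. Only Hsc70-4, with a relaxed signal of 48.0, had a comparison region alone. No test of a list was made, and the members of a list were chosen with results of these data known.

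Ribosomal protein genes had member peaks at 21 of 33 genes with a region, and the 4 strongest had their summits close to the start. RpL24 (279) had its summit 21 bp upstream, RpS10b (229) 16 bp downstream, RpL17 (201) 20 bp downstream and RpL27 (174) 9 bp downstream. The median signal of the 21 was 128, close to the 136 of all members. Translation factors had 6 of 12, led by eIF6 (740), eIF5B (311), which joins ribosomal subunits, eEF1gamma (218) and eEF2 (169), elongation factors. Genes of the respiratory chain had a member peak at 1 of 10, blw (193), a subunit of ATP synthase. No proteasome gene had a region of either kind under the rule.

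**Figure D5:**
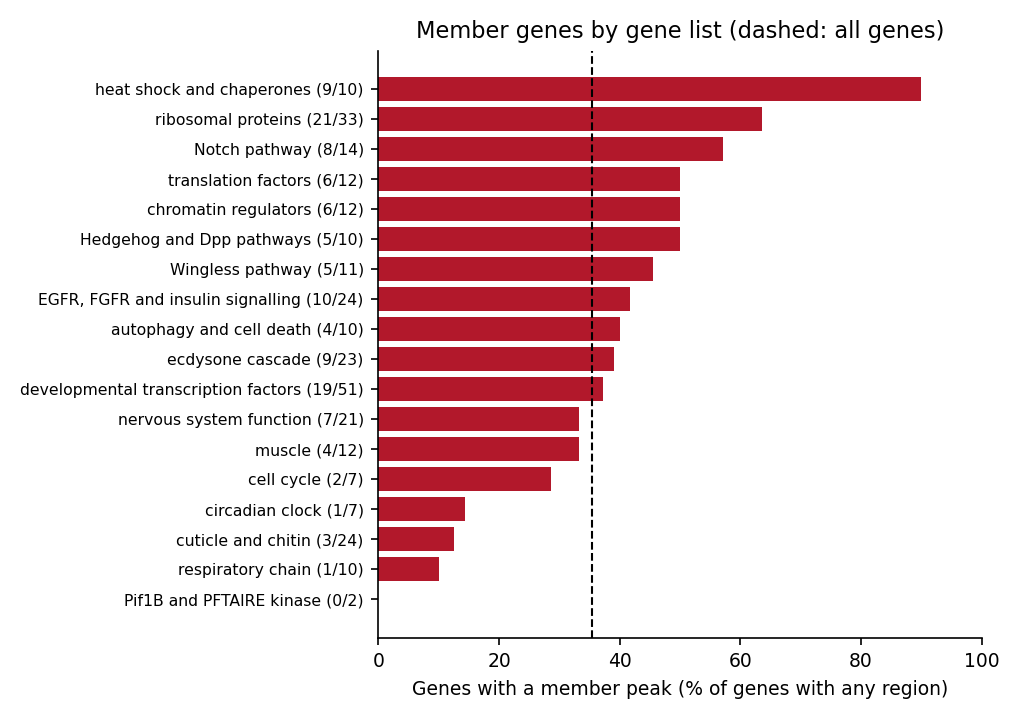
Share of genes with a member peak among genes with any region at the main start (x axis, %), for the 18 lists with such genes (y axis, with counts). The dashed line is the share over all genes, 35.4%; the heat shock list stands at 9 of 10 and the respiratory chain list at 1 of 10.

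Signalling pathways of development had shares around or above that of all genes. Notch pathway genes had 8 of 14, with the repressor genes E(spl)m7-HLH (345) and E(spl)m3-HLH (174), the protease kuz (145) that cleaves Notch, and the ubiquitin ligase mib1 (118). Genes of the Hedgehog and Dpp pathways had 5 of 10, with the receptor wit (297), the glypican dally (190), the Hedgehog receptor ptc (145) and the inhibitor Dad (109). Wingless pathway genes had 5 of 11, with the inhibitor nkd (194), the receptor fz (117), Apc (111), of the complex that degrades Armadillo, and the factor pan (110). EGFR, FGFR and insulin signalling genes had 10 of 24, with the phosphatase csw (224), the EGFR inhibitor aos (221), Ilp6 (210), an insulin-like peptide, and bnl (178), an FGF.

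Regulators of transcription and of metamorphosis were near or above the share of all genes. Developmental transcription factors had 19 of 51, led by cbt (623), elav (605), tin (496), of the heart, and mamo (388). Of these elav encodes a neuronal RNA-binding protein and no transcription factor, and it also stands in the nervous system list. The ecdysone cascade had 9 of 23, with E23 (622), Eip74EF (200), an ETS factor, and Hr78 (172) and eg (171), which encode nuclear receptors. EcR, the ecdysone receptor itself, had a comparison region of 82.9, just under the lowest IDR peak. Chromatin regulators had 6 of 12, with the Polycomb protein ph-p (564), lola (287), trx (212) and BEAF-32 (150). Autophagy and cell death genes had 4 of 10, with hid (448), Atg8a (165), the kinase Vps15 (116) and rpr (103), where hid and rpr encode inhibitors of the caspase inhibitor Diap1.

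Nervous system and muscle genes had shares near that of all genes, and smaller shares of the few genes with a region were found in the lists that follow them. Nervous system genes had 7 of 21, with elav, the adhesion molecule Fas2 (212), Tbh (116), which makes octopamine, and dnc (99.8). Muscle genes had 4 of 12, with sls (237), a titin relative, Mef2 (117), Zasp52 (114) and Actn (95.8). Cell cycle genes had 2 of 7, Cdk4 (124) and Myc (100.7), and circadian clock genes 1 of 7, the light receptor cry (279). Cuticle and chitin genes had 3 of 24, the chitinase Cht7 (225), knk (136), which organises chitin, and the chitin synthase kkv (109). Of the partners of Pif1B, the PFTAIRE kinase gene Eip63E (71.2) and its cyclin gene CycY (35.1) had comparison regions only, 0 of 2.

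Members were weaker than IDR peaks at divergent promoters. Their signal was above the median of the whole IDR list, 137, in 561 of 1137 (49.3%), against 233 of 386 peaks (60.4%) that also had an opposite start within 500 bp (odds ratio 0.640, 0.506 to 0.809; Fisher's exact test, adjusted p = 0.000665). The medians were 136 at members and 161 at divergent promoters. With a distance of 1000 bp in place of 500 bp the log2 odds ratio was -0.19 (p = 0.177) and among the stronger of the IDR peaks -0.23 (p = 0.311, Fisher's exact test), against -0.64 here. All 3 replicates supported 62.4% of members and 73.6% of the peaks at divergent promoters (odds ratio 0.595, 0.461 to 0.769; Fisher's exact test, adjusted p = 0.000285). Such support moved with signal, from 97.4% in the strongest signal class of members to 11.4% in the weakest. Whether the difference in support goes beyond the difference in signal was not tested. The settings without a replicate cannot test that difference in support, since they keep only peaks that both other replicates support. They ask only whether the replicate left out supports those peaks too. The log2 odds ratio was then -0.14 without replicate 1 (p = 0.721) and -0.31 without replicate 3 (p = 0.359, Fisher's exact test for both). Without replicate 2 it was -1.62 (Fisher's exact test, p = 4.57e-05). Against the 647 peaks at alternative starts of 1 strand, 54.1% of which were above the median of the list, the members did not pass (odds ratio 0.826, 0.681 to 1.00; Fisher's exact test, adjusted p = 0.0914).

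Peaks at the limits of the rule had signals within the range of the other members. The member summits nearest inside the distance limit were those at daw, an activin-like ligand, 500 bp upstream with a signal of 234, and at Helz, a helicase, 500 bp downstream with a signal of 146. The nearest outside were a peak 503 bp downstream of CG43815 (101.4) and a peak 504 bp upstream of CG17896 (669). The comparison regions nearest below the IDR threshold were at sns (83.0) and CG10947 (83.0), against 83.2 at eIF2beta, the weakest member.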

How the data were processed

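The deposited lists hold a signal per region, as the authors' peak caller wrote it; signal values are never negative and were not rescaled. Per the deposited text files, relaxed lists were called for each replicate and for the pooled replicates against a control, and the IDR list was derived from them. The IDR threshold, like the aligner and the peak caller, is not given in the sources used here. The dm3 lists and control libraries were not analysed here.

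Starts came from the Ensembl annotation (release 115) of BDGP6. Sequence came from RefSeq, whose chromosome lengths match dm6; no sequence of 1 arm, 2R, is shown. A summit was the interval start plus the deposited summit offset. A replicate supported a peak when at least 1 bp of it overlapped its strongest regions, taken in the number of the IDR list. Shares were compared by two-sided Fisher's exact tests across regions or genes, with Woolf intervals for odds ratios, Clopper-Pearson intervals for shares, and Benjamini-Hochberg adjustment over 10 single measures, 29 motifs or all hexamers merged with their reverse complements. For genes with both kinds of region, the gene counted as a member. Within each replicate list strong and weaker regions were compared as pairs by an exact sign-flip permutation test over the 3 replicates. Whether the replicates came from separate cultures of flies is known only as far as the labels number them as biological replicates. Calls needed an adjusted p under 0.05.

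Named genes are those at the 20 strongest members, the 4 bound members of highest signal in each of 19 lists (3 for a list with none) and the 3 weakest members. Added to them are the members and peaks nearest the distance limit and the members with the largest ratio of ranks between replicates. A gene may come under several of these. The members, gene lists, motifs and tests were chosen with earlier results of these data known. Of 891 list entries 850 matched the annotation. Alternatives were other distances, summit definitions, overlap rules, comparison sets, windows, IDR subsets, IDR peaks supported by 2 given replicates, single replicate lists and GC classes. The tests were checked on simulated data. Tests ran in scipy 1.17.1 under Python 3.11.15, tables were handled in pandas 2.3.3 over arrays of numpy 2.4.6, and plots were drawn with matplotlib 3.10.9.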

Additional observations from a re-analysis of the deposited data

How the results depend on the processing

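Over 21 alternatives 420 values were recomputed, and 294 counted as the same. For a test this meant the same direction and side of the threshold. A count of calls had to be equal or within 1.5 times the count first given. The bound share had to lie inside the Clopper-Pearson interval of its first value. Log2 odds ratios follow, with the cause of each change not tested. With starts within 250 bp, summits within 100 bp gave -0.045, X share -0.20, span 0.16, upstream neighbour 0.40 and the bound share 37.3%, with 0 hexamers higher and 0 motifs lower at starts. Within 1000 bp, summits within 100 bp gave 0.39, GC content 0.19, neighbour 0.26 and signal against divergent promoters -0.19, with 1 motif higher at summits and 7 hexamers higher and 1 lower. With the middle of the interval GC content gave 0.28 and signal against alternative starts -0.28, with 1 hexamer lower. With the stronger of the IDR peaks, split at their middle rank, summits within 100 bp gave -0.50, GC content 0.79, span 0.24, bound share 21.5%, and signal and support against divergent promoters -0.23 and -0.43, with 11 hexamers higher, only AAGAGA among them of the 4 named, and 3 lower. With support by all 3 replicates the values were -0.40 within 100 bp, 0.61 for GC content and 24.8% bound, with 1 motif higher at summits, 2 hexamers lower and 4 motifs lower at starts. With no IDR peak within 1000 bp they were 0.19 upstream, 0.28 for the neighbour and 39.3% bound, with 1 hexamer lower. Against comparison regions above their median signal they were -0.14 within 100 bp, 0.37 for GC content, -0.063 for X, 0.10 for span, 0.24 for starts and 49.9% bound, with 0 hexamers higher and 0 motifs higher or lower at starts.

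The settings named without a replicate kept only IDR peaks that both other replicates support, while the IDR list and comparison regions still came from all 3. Support by all 3 replicates was 97.4% in the strongest signal class and 11.4% in the weakest, so support filters also select by strength. These settings gave -0.26 to -0.20 within 100 bp, 0.43 to 0.56 for GC content and 26.6% to 27.6% bound. They gave -1.62 to -0.14 for support, of which the filter fixes 2 replicates, and -0.077 to 0.12 for signal against alternative starts. They also gave 0 to 1 motifs higher at summits, 0 to 3 hexamers lower and 2 to 4 motifs lower at starts. For single replicate lists GC content was -0.0038 in replicate 1, 0.47 in replicate 2 and 0.46 in replicate 3, and replicate 2 gave -0.015 within 100 bp, 1 motif higher at summits and 5 higher at starts. Replicate 3 gave -0.063 for X and 0 motifs higher or lower at starts. GC classes gave 1 motif higher at summits, and 1 higher and 0 lower at starts. Windows of 100 bp gave 1 motif higher, 9 hexamers higher and 3 lower. With 1 region per gene 1 hexamer was higher. Mean replicate ranks gave -0.30 for signal against alternative starts. Central summits, added after the data were seen, gave 0.15 upstream, 0.48 within 100 bp and -0.26 for GC content, with 1 motif higher, 1 lower and 8 hexamers higher. Non-central summits in both sets could not be compared, since 1 comparison region has one. Unknown depth leaves weak binding at the comparison regions undetermined. Because the study has 1 group, no replicate block between groups applies.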
